A study of Mus musculus with 4 samples.

Results

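The pontine nucleus was compared with the cerebellum, the olfactory bulb and the superior colliculus in the brain of the mouse at embryonic day 17.5. It is represented by 1 of the 4 Affymetrix arrays of the study, the array labelled with that tissue. The title of that sample names the pons instead. Each of the other 3 regions also has 1 array. All embryos were of the outbred ICR stock, and the labels name no mutation or treatment. Tissue was pooled before hybridisation, with 15 mice in the pontine nucleus pool, 16 in that of the superior colliculus, 13 in that of the cerebellum and 14 in that of the olfactory bulb, so the spread between animals is averaged within each array. With 1 array a region there is no replicate, no SD and no test, and a difference between regions cannot be told apart from a difference between single pooled preparations.

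Levels are log2 signals, in which 1 unit is a 2-fold difference, and sets of 4 levels are given in the order cerebellum, olfactory bulb, pontine nucleus, superior colliculus. The array medians were 8.13, 8.10, 8.11 and 8.07. A gene was compared where its level on at least 1 array exceeded 8.56, the median of all gene levels and called the level floor here, which held for 10908 of 19938 named genes. It was called lower in the pontine nucleus where its level was under that of every other region by 1 log2 unit or more, and higher where it was over that of every other region by as much. The distance to the nearest other array is the gap, from which all folds are computed. The mean of the other 3 arrays is called the comparison mean, and differences given without the word gap are measured to it. As a scale for dim signals, 204 vomeronasal receptor and beta defensin genes had levels with a median of 5.19 and a 95th percentile of 7.33, none of them exceeded the floor, and none passed the size rule when the floor was lifted. Other dim probe sets did pass on the pontine array. Of 6617 unlisted ones described further on, 224 were higher there without the floor, and 22 of these exceeded it. Where the lower level of a gene lies below 7.33, the fold printed for it carries little information on the size of the difference.

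The pontine nucleus lies in the ventral hindbrain. Its neurons are born at the rhombic lip, a dorsal germinal zone of the hindbrain, and migrate tangentially to the ventral surface under the control of guidance receptors. They are glutamatergic, and their axons cross the midline and enter the cerebellum as mossy fibres, which end on granule cells. Hox genes, which give hindbrain segments their identity, stay active in these neurons and bear on the position the neurons take in the nucleus.

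The tissue label was first set against marker genes. The Hox gene Hoxa2 read 7.71, 6.85, 12.41 and 7.07, and Hoxb3 read 8.40, 8.22, 12.14 and 8.25. Barhl1, a homeobox gene of rhombic lip neurons, read 11.25, 8.05, 12.50 and 10.84. Each of these was highest in the pontine nucleus, with Barhl1 also bright in the cerebellum and the colliculus. Robo3, a receptor required for commissural axons to cross the midline, read 7.82, 7.25, 9.05 and 7.11. The gastrin-releasing peptide receptor gene Grpr read 6.86, 6.57, 10.54 and 7.47. All 5 markers passed the higher rule, but they were chosen with earlier results of these data known, so their passing does not test the label. The vesicular glutamate transporter gene Slc17a6 read 11.77 in the pontine nucleus against 10.50 to 12.22 elsewhere. Slc17a7, the other main vesicular glutamate transporter gene, read 8.53, 12.24, 7.80 and 7.67 and exceeded the floor in the olfactory bulb alone. Some transmitter genes known from other brainstem neurons were also high on this array: the choline transporter gene Slc5a7 read 7.84, 6.68, 10.43 and 7.25, and the vesicular acetylcholine transporter gene Slc18a3 read 8.09, 8.12, 9.77 and 8.05. Chat, the acetylcholine synthesis gene, stayed below the floor at 7.49, and Tph2, the serotonin synthesis gene, read 8.19 against 6.23 to 6.59.

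The pontine nucleus had more lower genes than any other region. Of the 10908 compared genes, 107 (0.981%) were lower there. The olfactory bulb had 47 (0.431%), the superior colliculus 18 (0.165%) and the cerebellum 17 (0.156%). The higher genes numbered 87 (0.798%) in the pontine nucleus, between the 106 (0.972%) of the olfactory bulb and the 78 (0.715%) of the superior colliculus, with 66 (0.605%) in the cerebellum. Without the level floor, 110 of all 19938 named genes (0.552%) were lower and 101 (0.507%) higher in the pontine nucleus. The 4 sets of counts use the same arrays and are not independent of each other. Leaving out an array raised the number of lower genes to 210 without the cerebellum, 166 without the olfactory bulb and 244 without the superior colliculus, since the gap is then measured to the lowest of fewer arrays.

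The surplus of lower genes held at each size rule applied. At 0.5 log2 units the pontine nucleus had 373 lower genes, the olfactory bulb 180, the cerebellum 122 and the superior colliculus 109. At 2 log2 units it had 13, against 5, 0 and 1 in that order. The whole lower tail was longer as well. The 1st percentile of the difference from the comparison mean was -1.58 in the pontine nucleus, and in the olfactory bulb, superior colliculus and cerebellum it was -1.21, -1.16 and -0.97. At the upper end its 99th percentile was 1.27, the least of the 4, while its median difference was 0.00.

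**Figure D1:**
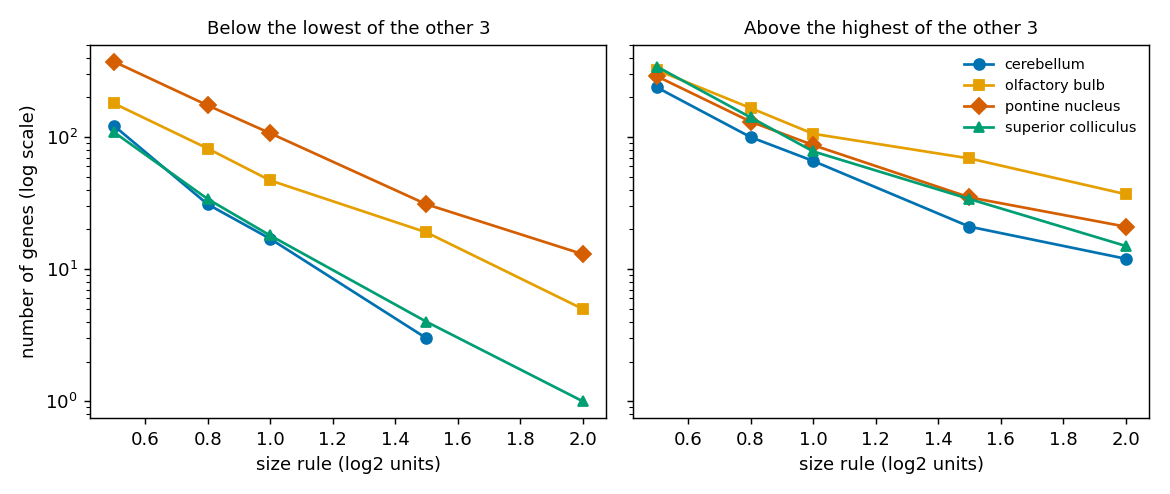
Number of genes (log scale) below the lowest (left) or above the highest (right) of the other 3 arrays, for size rules of 0.5, 0.8, 1, 1.5 and 2 log2 units, with 1 line per region among 10908 compared genes; the cerebellum's 0 at 2 log2 units is not drawn. The pontine nucleus line lies above the others at every rule in the left panel, with 107 genes at 1 log2 unit, and among the others in the right panel.

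In the plot of counts by size rule the pontine line is the upper one for lower genes over the whole range, whereas for higher genes it runs between the olfactory bulb and the cerebellum at 1 log2 unit.

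Most of the 107 lower genes were active in all 3 other regions. Their median levels were 10.04, 10.27, 8.21 and 10.49. All 3 other arrays exceeded the floor for 99 of them (92.5%). In the pontine nucleus 67 lay at or below the floor, 9 of these below 7.33, and the remaining ones were dimmer but above it, up to the sodium pump subunit gene Atp1b1 at 12.60, 12.86, 11.55 and 12.87. For 87 of the 107 the gap to the next array was wider than the whole range of the other 3. The nearest region was the cerebellum for 59 of the lower genes (55.1%, against 42.9% of all compared genes), the olfactory bulb for 29 and the superior colliculus for 19. The highest level was in the superior colliculus for 52 (48.6%, against 37.4% of all compared genes). The commonest order, found in 34 genes, was superior colliculus, olfactory bulb, cerebellum, pontine nucleus.

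The higher genes had another shape, which follows in part from the rules. A higher gene could enter the comparison through its pontine level alone, whereas a lower gene needed another array above the floor. Their median levels were 9.06, 8.51, 10.91 and 9.14, and all 3 other arrays exceeded the floor for 39 of 87 (44.8%). For 35 all 3 lay at or below it. The nearest region was the cerebellum for 39, the superior colliculus for 33 and the olfactory bulb for 15.

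Genes for adhesion proteins with leucine-rich repeats included the widest gap among the lower genes. Islr2, which encodes a neuronal membrane protein with leucine-rich repeats and an immunoglobulin domain that acts in axon growth, read 12.43, 12.70, 7.90 and 11.93. It was 16.3-fold lower in the pontine nucleus than in the superior colliculus, the nearest region, and it was above the floor on each of the other 3 arrays. Rtn4rl1, a Nogo receptor relative, read 10.56, 10.59, 8.05 and 11.06 and was 5.70-fold lower. Slitrk4, a synaptic adhesion gene, read 9.46, 9.49, 8.04 and 9.92. These 3 were the lower genes among 38 compared members of the leucine-rich repeat list, in which none was higher. The list median of these differences was -0.35, with 21 members below and 17 above that mean, beside 5458 below and 5393 above and a median of 0.00 over all compared genes. With the floor at the 75th percentile that median was 0.01. The list was spread to both sides: Lrrn1 read 12.93 in the pontine nucleus against 12.03 to 12.34, and Elfn2 10.77 against 9.10 to 10.09.

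Cadherin family genes, which mediate calcium-dependent adhesion and mark brain nuclei in combinations, held 6 lower genes and 1 higher gene among 30. Clstn2, a calsyntenin of the postsynaptic membrane, read 10.94, 12.07, 8.42 and 11.03 and was 5.74-fold lower. Cdh12 read 10.54, 10.32, 8.21 and 11.12 and was 4.32-fold lower. Both were well above the floor in all 3 other regions, with Clstn2 brightest in the olfactory bulb. Cdh4 read 11.39, 11.74, 10.09 and 11.76, and Cdh10 read 10.89, 10.69, 9.49 and 10.70. The protocadherin gene Pcdh11x read 10.79, 11.66, 9.55 and 12.14. Pcdh18, highest in the superior colliculus, read 10.57, 10.53, 9.34 and 11.90. The higher member was Cdh7, at 10.56, 10.54, 11.56 and 10.25, just at the rule. The list median was -0.61 (-0.34 without the superior colliculus array and -0.14 against the lowest of the other arrays), 21 of 30 members lay below the comparison mean, and 18 were lowest in the pontine nucleus, which 26.0% of all compared genes were. Cdh8 stood on the other side without passing, at 11.64, 9.59, 12.11 and 12.12.

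Of 42 immunoglobulin superfamily adhesion genes, 5 were lower and 1 was higher. Alcam, which encodes an adhesion molecule of growing axons, read 11.36, 11.45, 9.88 and 11.56 and was 2.79-fold lower. The contactin gene Cntn3 was 2.33-fold lower. The pair of homophilic adhesion genes Sdk2 and Dscaml1 was 2.30-fold and 2.07-fold lower, and Kit, the receptor for stem cell factor, lay at the edge of the rule. The higher gene, Cntnap5a of the contactin-associated protein family, read 10.14, 9.87, 12.59 and 10.53 and was 4.17-fold higher. Its relative Cntnap5c read 8.46, 8.19, 10.76 and 8.74. The list median was -0.19, and 0.03 without the superior colliculus array.

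Synaptic organiser genes were lower in a few members. Cbln2, a secreted cerebellin that links neurexins to postsynaptic receptors, read 10.19, 11.69, 7.86 and 11.50 and was 5.03-fold lower, and Nrxn3, a neurexin, read 11.62, 11.97, 10.08 and 11.52. Among the 21 compared cerebellin, neurexin, neuroligin, teneurin and latrophilin genes no other passed either rule, and their median difference was 0.06. Nptx1, a secreted neuronal pentraxin that clusters glutamate receptors, read 10.04, 9.77, 8.05 and 9.75. Gjd2, which encodes the gap junction protein of electrical synapses between neurons, read 10.06, 10.39, 8.37 and 10.73.

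**Figure D2:**
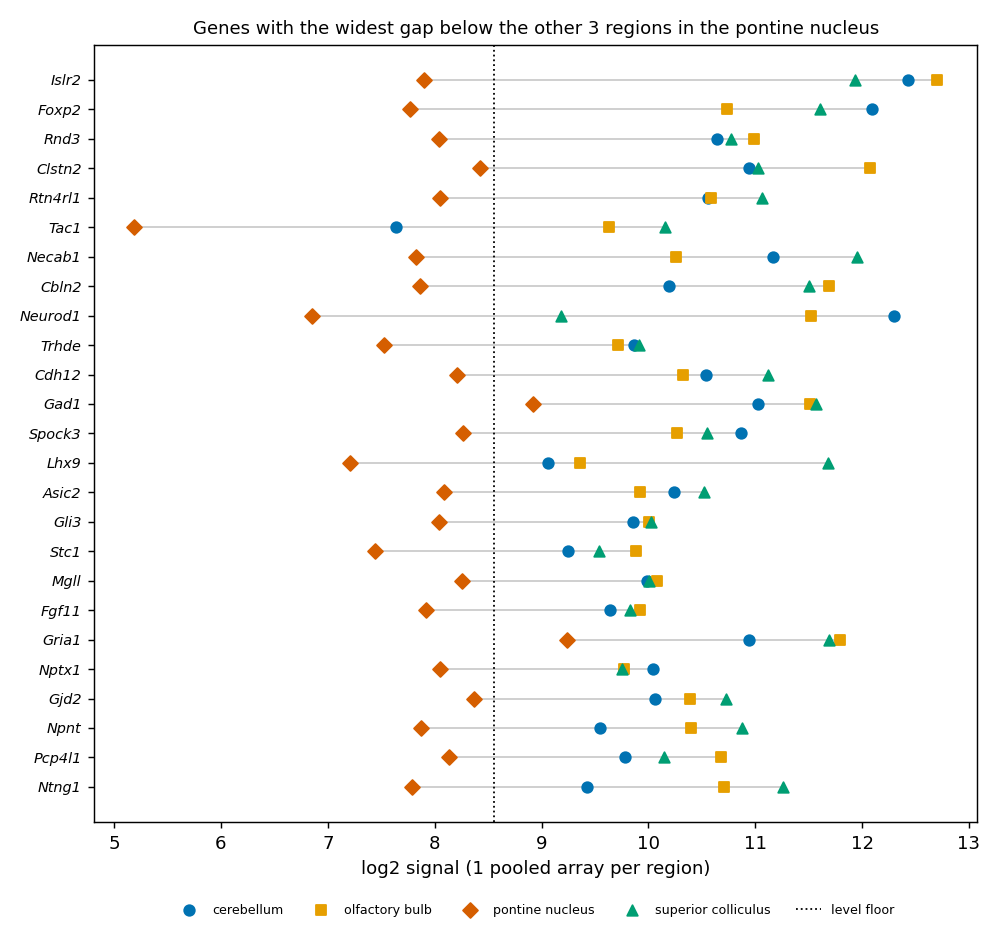
Log2 signal (x axis) of the 25 genes with the widest gap below the other 3 regions, 1 symbol per region and array, grey lines from the lowest to the highest array, and the level floor of 8.56 as a dotted line. The pontine nucleus symbol stands alone at the left for every gene, from Islr2 at 7.90 down the list to Ntng1 at 7.79, and lies above the floor only for Gad1 at 8.92 and Gria1 at 9.24.

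The plot of the 25 lower genes shows that the other 3 regions clustered tightly for some genes, such as Gli3, Mgll and Trhde, and were spread for others, such as Neurod1, Lhx9 and Tac1.

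Axon guidance genes were not low throughout. Of 27 semaphorin, plexin and neuropilin genes 19 lay above the comparison mean, with a median of 0.28. Nrp1, a co-receptor for class 3 semaphorins, read 9.17, 10.73, 12.20 and 10.92 and was 2.43-fold higher, while Sema5a, a transmembrane semaphorin, read 10.31, 11.27, 9.02 and 10.34 and was 2.45-fold lower. In the Slit, Robo, netrin and draxin list 2 of 21 were lower, 1 was higher, and the median was 0.08. The netrin-G gene Ntng1, whose product is a membrane-anchored netrin relative, read 9.43, 10.71, 7.79 and 11.26. Within the Robo family the members differed: Robo1 read 11.59, 11.85, 10.44 and 12.40 and was 2.22-fold lower, Robo3 was 2.35-fold higher, and Robo2 read 12.43, 12.99, 12.39 and 12.44. None of 19 Eph receptor and ephrin genes passed either rule, with Epha6 just outside the lower one at a gap of -0.98. At the shares of all compared genes (0.981% lower and 0.798% higher) a list of this size would hold few such genes or none. The netrin receptor gene Dcc read 12.14, 11.76, 11.01 and 11.31, and Unc5c, another netrin receptor gene, read 12.21, 10.48, 12.36 and 10.67. The first was thus lowest and the other highest in the pontine nucleus, neither by the size rule.

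Among 70 forkhead, bHLH, LIM and other neuronal transcription factor genes 6 were lower and 5 higher, with 40 below and 30 above the comparison mean. Foxp2, a forkhead gene of several neuron classes including Purkinje cells, read 12.09, 10.74, 7.77 and 11.61 and was 7.84-fold lower. Neurod1, a bHLH gene of differentiating neurons that is abundant in cerebellar granule cells, read 12.30, 11.52, 6.85 and 9.18. Its pontine level lay within the background range, so the 5.03-fold gap carries little information on the size of the difference. The LIM homeobox gene Lhx9 read 9.06, 9.36, 7.21 and 11.68. For these 3 the region next above the pontine nucleus was a different one each time. Pbx3, a TALE homeobox cofactor gene, read 12.46, 13.00, 11.09 and 12.85, Foxo1 was 2.48-fold lower and the POU gene Pou3f2 2.25-fold. In contrast to Neurod1, its relative Neurod2 read 11.41, 11.15, 12.22 and 9.58. On the higher side Irx2 read 10.72, 8.70, 12.45 and 10.77 and its chromosomal neighbour Irx1 9.73, 8.51, 11.28 and 9.85. Nfix, of the nuclear factor I family that promotes neuronal and glial maturation, read 12.39, 10.89, 13.86 and 11.58. Its relatives Nfib (12.74, 11.90, 13.72 and 11.72) and Nfia (12.47, 11.63, 12.77 and 11.04) were highest in the pontine nucleus too but did not pass. The remaining higher members were Lmo4 and Zfpm2, 2.31-fold and 2.04-fold higher.

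Transcription factor genes of the midbrain and its boundary with the hindbrain were low as a list, 15 of 16 lying below the comparison mean, and the median was -1.40, against -0.83 when members under the floor were included. Otx2, which specifies forebrain and midbrain in the early embryo, read 10.70, 8.56, 7.04 and 11.93. The growth factor gene Fgf15 read 10.55, 10.27, 8.23 and 9.55. These 2 passed the lower rule. The others were mostly low in more regions than the pontine nucleus: Tfap2b read 11.30, 7.53, 6.82 and 12.88, Pax7 8.59, 8.07, 7.86 and 11.21, and En2 11.47, 7.26, 6.95 and 7.44. Set against the lowest of the other arrays the list median was -0.06. Meis1, a TALE homeobox gene, was the member above the mean, at 11.92, 10.88, 12.42 and 10.17.

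GABAergic genes were low. Gad1, encoding a glutamate decarboxylase that makes GABA, read 11.03, 11.51, 8.92 and 11.57 and was 4.32-fold lower. Gad2, its paralogue, read 10.47, 11.10, 9.20 and 11.59, and Slc32a1, the vesicular inhibitory amino acid transporter gene, read 9.34, 9.35, 8.03 and 9.27. These 3 genes of GABA synthesis and vesicular loading were thus lower together, by 2.36-fold or more. In bulk tissue fewer cells of a type and less RNA per cell cannot be told apart. Of the 17 compared GABAergic neuron genes 3 were lower, 0 higher and 15 below the comparison mean, with a median of -1.29, which became -0.19 against the lowest of the other arrays. Many members were high in 1 region, as Dlx1 (7.84, 12.89, 7.79 and 7.81) was in the olfactory bulb. The somatostatin gene Sst went the other way, at 12.20, 10.42, 12.86 and 12.48. Glycinergic genes were not low as a list, with a median of 0.07 over 7 genes, although Slc32a1 stands in that list too. The glycine transporter gene Slc6a5, a marker of glycinergic neurons, read 9.12, 7.64, 8.78 and 7.37, and the glycine receptor gene Glra2 read 11.14, 10.22, 12.57 and 11.72.

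Receptor genes for GABA diverged by subunit. Gabrb2 read 11.48, 11.45, 10.29 and 12.25 and was 2.23-fold lower, and its 2 other probe sets passed the rule as well. Gabrg1 read 8.68, 11.19, 12.52 and 10.57 and was 2.51-fold higher. Gabra2 was also highest in the pontine nucleus, at 10.31, 11.97, 12.44 and 11.50, whereas Gabrg3 was lowest there, at 8.86, 9.82, 8.05 and 10.72. Over the 9 compared subunits the median difference was -0.42, and it was -0.69 without the cerebellum array and -0.27 without that of the superior colliculus.

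Of 22 glutamatergic genes, Gria1, encoding an AMPA receptor subunit, was the lower one, at 10.94, 11.79, 9.24 and 11.69. Grik3, encoding a kainate receptor subunit, was the higher one, at 11.79, 11.59, 12.91 and 11.21. The kainate receptor accessory gene Neto1 read 11.03, 10.51, 13.14 and 10.88 and was 4.32-fold higher. Other AMPA subunit genes differed less from the rest, with Gria2 at 12.01, 11.90, 11.74 and 12.10. The list median was -0.24, and 0.04 without the superior colliculus array.

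Among peptide signalling genes Tac1, the precursor of substance P, read 7.64, 9.63, 5.19 and 10.16, which placed the pontine nucleus at the median of the background genes. The neurotensin gene Nts read 6.57, 11.78, 5.62 and 6.82, close to background in 3 regions. The list of 26 neuropeptide and receptor genes had 1 lower gene and 2 higher genes, 18 members below the mean and a median of -0.49. That median was -0.26 without the olfactory bulb array, -0.21 without that of the superior colliculus, -0.15 with no floor, -0.07 against the median of the other arrays and 0.17 against the lowest. The higher ones were Grpr, 8.40-fold above the next region, and Adcyap1, the precursor of the peptide PACAP, at 8.85, 8.34, 11.36 and 9.45. Trhde, an ectoenzyme that degrades thyrotropin-releasing hormone, read 9.87, 9.72, 7.53 and 9.91.

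Secreted and matrix genes among the lower ones included Spock3, a testican proteoglycan, at 10.87, 10.27, 8.27 and 10.55. Stc1, the stanniocalcin gene, read 9.25, 9.88, 7.44 and 9.54, and Npnt, encoding the integrin ligand nephronectin, 9.55, 10.40, 7.87 and 10.88. Each of the 3 was lower by 3.20-fold or more. The neurotrophic list held Igf1, which read 8.91, 11.46, 7.79 and 9.82, and Cntfr, the ciliary neurotrophic factor receptor gene, at 12.06, 11.93, 10.83 and 11.97. It also held 2 higher genes, the receptor tyrosine kinase genes Met (2.28-fold) and Ret (2.03-fold), and its median over 27 genes was 0.15.

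Hedgehog signalling genes had 2 lower members of 13 and none higher. Gli3, the transcription factor that mainly represses hedgehog targets, read 9.86, 10.01, 8.04 and 10.02, nearly equal in the other regions. Boc, a hedgehog co-receptor gene, read 11.40, 9.98, 8.46 and 9.74. Gas1, another co-receptor gene, read 9.95, 10.13, 8.61 and 9.46 and did not pass, whereas the receptor gene Ptch1 read 11.49, 10.63, 11.02 and 10.72. The list median was -0.54, with 8 of 13 lowest in the pontine nucleus, and it was -0.31 without the cerebellum array and -0.12 against the lowest of the other arrays.

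Of 36 Wnt pathway genes 29 lay below the comparison mean, with a median of -0.40. The receptor genes Fzd8 (2.28-fold) and Fzd1 (10.24, 9.95, 8.83 and 10.83) were lower, as was Sfrp2, encoding a secreted Wnt-binding protein, at 11.24, 9.71, 8.55 and 10.65. The secreted antagonist gene Dkk2 was higher, at 7.85, 7.49, 9.19 and 7.88. Ctnnb1, the gene of beta-catenin, was lowest in the pontine nucleus at 12.84, 12.88, 12.13 and 12.82 without passing. No member of 22 Notch pathway genes passed either rule, and their median was -0.14. Of all compared genes 0.981% were lower and 0.798% higher, and at those shares a list of this size would hold few such genes or none.

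Genes of intracellular signalling and calcium handling were also found. Rnd3, a small GTPase gene, read 10.64, 10.99, 8.04 and 10.77 and was 6.06-fold lower. It was nearly equal in the other 3 regions. Necab1, encoding a neuronal EF-hand calcium-binding protein, read 11.17, 10.26, 7.83 and 11.95. Fgf11, of the intracellular fibroblast growth factor family, read 9.64, 9.92, 7.92 and 9.83, and Pcp4l1, a relative of the calmodulin-binding Pcp4, 9.78, 10.68, 8.13 and 10.15.

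Lipid messenger enzymes formed a small group that was named after its values were seen. Mgll, encoding monoacylglycerol lipase, which degrades the endocannabinoid 2-arachidonoylglycerol, read 9.99, 10.08, 8.26 and 10.01. Naaa, encoding an amidase for N-acylethanolamines, read 8.2 in the pontine nucleus against 9.79 to 10.53. They were 3.32-fold and 3.01-fold lower. Cnr1, the cannabinoid receptor gene, was by contrast 2.03-fold higher, at 10.55, 10.30, 11.79 and 10.77. The adenylate cyclase genes Adcy8 and Adcy2 were 3.05-fold and 2.66-fold lower.

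Ion channel genes passed in both directions. Of 43 potassium channel genes 3 were lower, among them Kcnd3, encoding an A-type channel, at 10.64, 10.60, 9.19 and 10.67, and the calcium-activated Kcnma1 at 10.47, 10.40, 9.27 and 11.12. A second probe set of Kcnma1 lay on the same side without passing. The higher ones were Kcnn2, a small-conductance calcium-activated channel gene, at 9.25, 9.13, 10.30 and 9.14, and Kcnk9, a leak channel gene, at 10.49, 9.26, 11.52 and 9.97. The list median was -0.02. Of 32 sodium, calcium and HCN channel genes, which include TRP channels, 3 were lower and 1 was higher, with Cacng5 at 9.84, 10.75, 7.85 and 9.20, Trpc5 at 9.22, 10.11, 7.97 and 10.50, and Scn9a higher at 9.28, 8.82, 10.70 and 9.53. Asic2, an acid-sensing channel gene, was 3.56-fold lower, at 10.24, 9.92, 8.09 and 10.52. General synaptic genes were level in their medians, at -0.05 over 41 presynaptic and -0.01 over 30 postsynaptic genes. Both lists together held 1 lower gene, Doc2b, a calcium sensor of vesicle release. As 0.981% of all compared genes were lower, lists of this size would hold few such genes or none.

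Of the 107 lower genes 49 stood in at least 1 gene list and 58 in none. Examples of the latter, picked after their values were seen, include Ssbp2, encoding a cofactor that stabilises LIM domain complexes, at 12.57, 12.55, 10.99 and 12.92. Zeb2, a zinc finger homeobox gene, read 11.13, 12.09, 9.80 and 11.17, and Tfap2a, an AP-2 transcription factor gene, 11.04, 7.84, 6.67 and 9.90. Gng4, a G protein gamma subunit gene, read 10.34, 12.01, 9.22 and 11.68. In Ssbp2 and Zeb2 the pontine level stayed above the floor, whereas in Tfap2a it lay in the background range and the olfactory bulb was below the floor too.

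**Figure D3:**
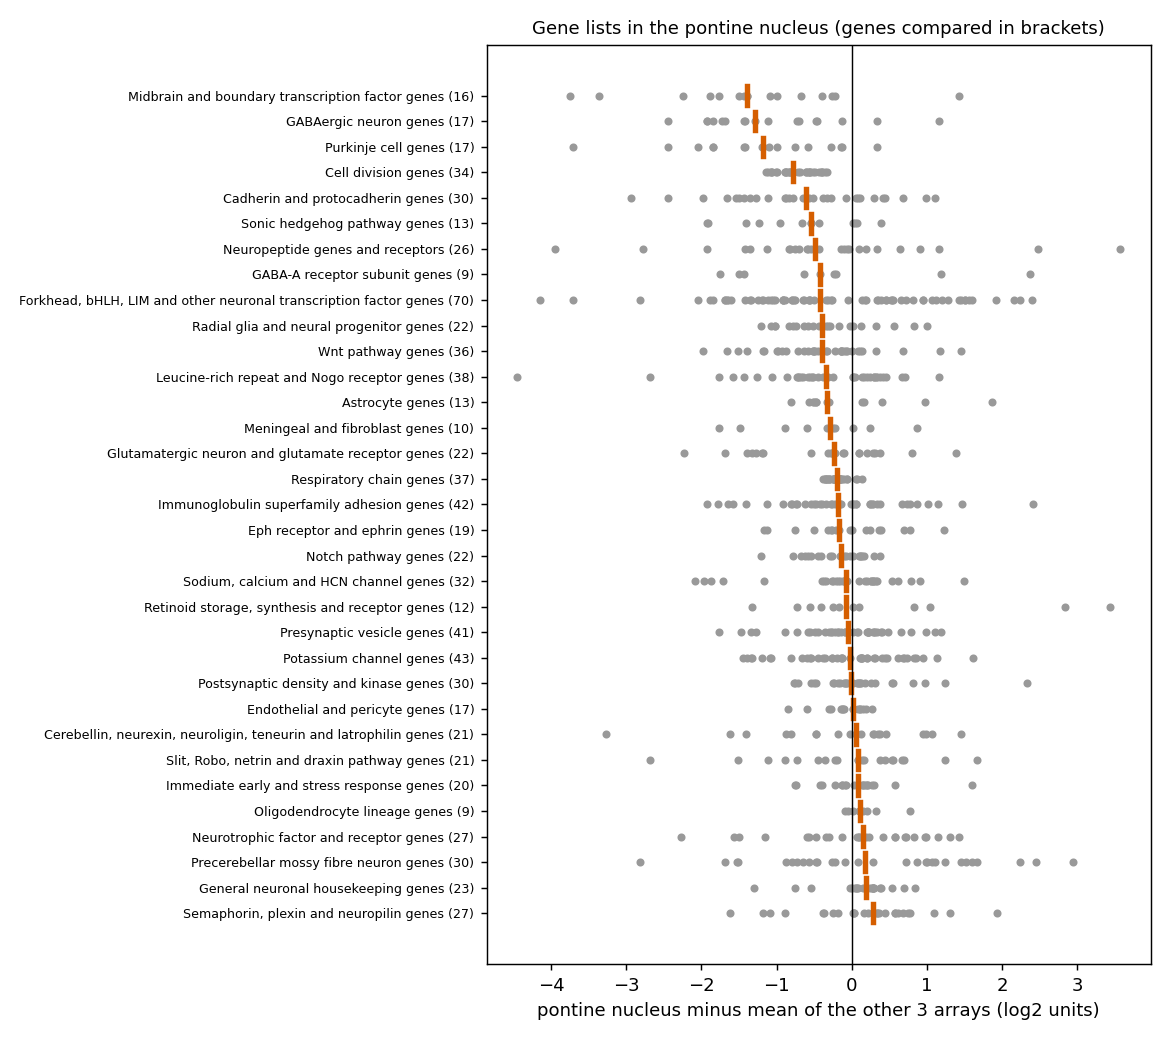
Difference of the pontine nucleus from the mean of the other 3 arrays (x axis, log2 units) for most gene lists with at least 9 compared genes, the Hox list left out, with a grey point per gene and an orange bar at the list median. The medians run from -1.40 for the midbrain and boundary list to 0.28 for the semaphorin list, and most lists hold genes on both sides of 0, while the cell division genes all lie below it.

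As the plot of gene lists shows, a negative median did not mean that a whole list was low, and among the lists drawn there the cell division genes were the ones that lay entirely to one side. Of its 34 genes 34 were below the comparison mean, with a median of -0.78, but only 3 were lowest in the pontine nucleus and none passed the rule. The median was -0.38 without the cerebellum array and -1.30 without that of the superior colliculus. The proliferation marker Mki67 read 11.50, 10.93, 9.50 and 9.27, which placed the pontine nucleus beside the superior colliculus and below the other regions. Radial glia and progenitor genes had a median of -0.40 over 22 (-0.21 without the cerebellum array), with 14 lowest in the pontine nucleus and none past the rule. Purkinje cell genes had a median of -1.18 over 17, of which Foxp2, Gad1 and Gad2 were lower, and 11 of the 17 also stand in another list. Car8, a marker of this cell type, was high in the cerebellum alone, at 12.09, 8.46, 8.69 and 9.07.

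Few markers of other cells and of sample quality passed either rule, but few of all compared genes did (0.981% lower and 0.798% higher). At that share, lists this small would hold few such genes or none. Several of their list medians were as far from 0 as those of neuronal lists. None of 8 microglia, 17 endothelial, 9 oligodendrocyte and 10 meningeal genes passed either rule, with medians of -0.21, 0.02, 0.11 and -0.29. The microglial gene Cx3cr1 read 9.09 in the pontine nucleus against 9.24 to 9.41, the endothelial gene Cldn5 10.46 against 10.53 to 10.64, and the oligodendrocyte gene Olig2 9.42 against 8.91 to 9.59. The meningeal gene Dcn read 7.08, 10.59, 7.28 and 8.65. Of 13 astrocyte genes the water channel gene Aqp4 was higher, at 9.09, 8.10, 10.68 and 9.25, and the list median was -0.33. The 3 erythroid, 4 cartilage and muscle, and 5 sensory ganglion and Schwann cell genes that could be compared also held none past the rules, with medians of -0.38, -0.37 and -0.56. Of 20 immediate early and stress response genes Ier5, an immediate early gene, was higher, at 9.06, 9.04, 10.47 and 8.52, and the median was 0.08. No pituitary gene exceeded the floor, and Otx2 was the compared member of the choroid plexus list, whose marker Ttr was below the floor on all 4 arrays. Respiratory chain genes were slightly and widely lower, with 31 of 37 lowest in the pontine nucleus, a median of -0.20 and none past the rule, and general neuronal genes slightly higher, with 18 of 23 above the mean and a median of 0.19. The part of these shifts in the lower and higher genes was not tested.

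Hox genes led the higher side. Of 25 measured, 11 exceeded the floor, and these 11 all passed the higher rule. They entered the comparison through their pontine level, since no other array exceeded the floor for them, and the median over all 25 was 0.02. The other 14 stayed below the floor on every array. Hoxa3 read 6.69, 6.63, 10.12 and 6.32, Hoxb2 read 7.76, 7.32, 10.25 and 7.34, and Hoxd3 read 7.39, 7.34, 9.86 and 7.08. Hoxb5 read 7.17, 7.02, 8.94 and 7.06. These were high in the pontine nucleus alone among the 4 arrays. The antisense transcript Hoxaas2 read 7.21, 7.13, 9.42 and 6.89. Whether the probe sets separate antisense from sense transcripts is not given in the sources used here. Of 86 higher genes placed on the RefSeq gene table, 17 adjoined another higher gene, in 6 runs. The longest run was Hoxa2, Hoxaas2, Hoxa3, 5730596B20Rik, Hoxa4 and Hoxa5. Another was Barhl1 and Ddx31, an RNA helicase gene that read 8.51, 8.30, 11.31 and 8.25. Of the 107 lower genes, 4 adjoined another, as Cdh10 with Cdh12 and Lhx9 with Nek7.

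Other higher genes belonged to retinoid handling and to secreted and membrane proteins. Lrat, which stores retinol as esters, read 7.49, 7.32, 10.76 and 7.18 and was 9.65-fold higher. Crabp1, a cellular retinoic acid binding protein gene, read 9.81, 10.91, 13.36 and 10.87 and was 5.46-fold higher. The other 10 compared genes of the retinoid list did not pass, and the receptor gene Rarb read 7.96, 8.19, 9.09 and 8.63. Pappa2, a protease for insulin-like growth factor binding proteins, read 7.76, 7.14, 10.08 and 7.61, and both of its other probe sets passed. In the list of precerebellar mossy fibre neuron genes 4 of 30 were higher (Nfix, Barhl1, Robo3 and Cdh7) and 3 lower (Lhx9, Tle4 and Robo1), with a median of 0.18. That median was 1.08, 0.35 and 0.39 without the cerebellum, olfactory bulb and superior colliculus arrays, -0.46 against the highest of the others and 1.25 against their lowest. Mab21l2 of that list read 11.06, 7.73, 13.37 and 12.51 and Zic1 12.90, 12.14, 13.36 and 12.42, both highest in the pontine nucleus without passing. The brainstem cholinergic, monoaminergic and motor list had 3 higher genes of 7 (Slc18a3, Slc5a7 and Slc6a4, the last a serotonin transporter gene that read 7.45, 7.45, 8.85 and 7.41) and a median of 0.43. Over so few genes the median moved widely, to -0.07 without the cerebellum array, 1.42 without that of the olfactory bulb and 1.40 without that of the superior colliculus, and to -0.26 against the highest and 1.44 against the lowest of the others. The 3 higher genes entered the comparison through their pontine level, since no other array exceeded the floor for them. With no floor the list median was 0.13.

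**Figure D4:**
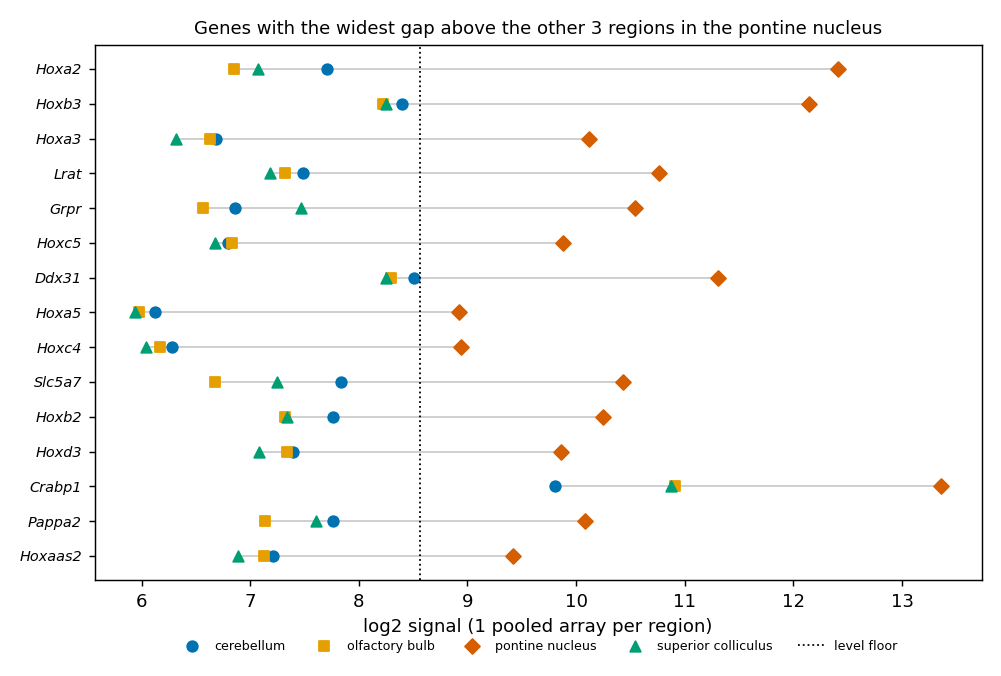
Log2 signal (x axis) of the 15 genes with the widest gap above the other 3 regions, 1 symbol per region and array, grey lines from the lowest to the highest array, and the level floor of 8.56 as a dotted line. The pontine nucleus symbol stands alone at the right for every gene, and Crabp1, at 9.81 to 10.91 elsewhere, is the one of them whose other arrays all exceed the floor.

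In the plot of the 15 higher genes the other regions lay at or below the floor, except for Crabp1. The rules allow this for higher genes, whose pontine level alone can pass the floor. The contrast with the lower genes is thus in part built in.

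Promoter windows of 300 bases, from 250 before to 50 after the start of each gene, were read from RefSeq (GRCm38.p6). They are shown for 3 marker genes that were higher and for the lower gene Tac1, because each holds a searched motif, printed in capitals. Barhl1 has 2 promoters in that source, and the other is not printed. The motifs were TGATTGAT, a sequence that HOX proteins bind together with PBX cofactors, and TAATTA, a core bound by many homeodomain proteins, both sought on either strand.
Hoxa2 promoter, chr6:52164782-52165081, minus strand: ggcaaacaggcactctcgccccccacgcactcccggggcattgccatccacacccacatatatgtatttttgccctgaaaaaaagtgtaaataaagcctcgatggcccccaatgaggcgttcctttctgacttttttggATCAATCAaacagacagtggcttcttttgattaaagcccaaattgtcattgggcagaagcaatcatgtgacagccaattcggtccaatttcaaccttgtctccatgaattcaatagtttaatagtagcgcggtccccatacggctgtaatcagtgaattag
Barhl1 promoter, chr2:28916619-28916918, minus strand: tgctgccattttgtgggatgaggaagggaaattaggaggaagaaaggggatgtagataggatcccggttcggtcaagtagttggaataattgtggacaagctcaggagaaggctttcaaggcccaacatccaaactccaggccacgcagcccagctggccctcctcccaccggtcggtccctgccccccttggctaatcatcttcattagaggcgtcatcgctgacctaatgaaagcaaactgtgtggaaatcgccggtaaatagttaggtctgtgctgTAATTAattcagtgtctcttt
Robo3 promoter, chr9:37433126-37433425, minus strand: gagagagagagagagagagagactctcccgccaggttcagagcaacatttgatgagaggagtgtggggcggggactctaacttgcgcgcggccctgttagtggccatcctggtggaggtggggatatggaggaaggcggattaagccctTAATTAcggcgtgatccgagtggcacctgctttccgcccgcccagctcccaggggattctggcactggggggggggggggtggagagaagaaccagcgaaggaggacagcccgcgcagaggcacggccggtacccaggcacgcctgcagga
Tac1 promoter, chr6:7554811-7555110, plus strand: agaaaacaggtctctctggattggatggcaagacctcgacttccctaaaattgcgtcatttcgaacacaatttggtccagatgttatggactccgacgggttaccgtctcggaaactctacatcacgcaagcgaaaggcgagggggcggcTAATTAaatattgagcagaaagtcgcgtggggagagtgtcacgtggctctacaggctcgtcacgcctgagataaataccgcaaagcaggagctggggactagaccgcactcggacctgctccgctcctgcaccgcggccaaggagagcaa
The Hoxa2 window holds TGATTGAT on the opposite strand to the gene, with its first base at -111 from the start. Among the other 3, TAATTA begins at -101 in Robo3, at -100 in Tac1 and at 29 in Barhl1. TGATTGAT occurred in 1 of 59 higher genes with a window and in 0 of 83 lower genes, against 0.422% of compared genes. TAATTA occurred in 6 higher genes (10.2%) and 7 lower genes (8.43%), against 3.15% of compared genes and 6.12% of all genes with a window. The higher genes with TAATTA were Barhl1, Cdh7, Gabrg1, Nfix, Robo3 and Zfp536, and the lower ones Adarb2, Cntfr, Otx2, Slc24a2, Sorl1, Tac1 and Tfap2a. A match is a description of these letters and does not show binding.

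MicroRNA genes were a further group with high pontine signals, singled out after their values were seen. Mature microRNAs repress target messenger RNAs mainly through bases 2 to 8, the seed, which is in capitals below, and genes that share a seed are grouped as a family. The 5 sequences of the let-7, miR-99/100 and miR-125 families are printed because their genes lie together in clusters, followed by 3 of the chromosome 12 cluster described further on. All are from RefSeq (GRCm38.p6), where 271 of the 296 measured microRNA genes were matched.
mmu-miR-99a-5p: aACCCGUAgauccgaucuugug
mmu-miR-100-5p: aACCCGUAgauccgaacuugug
mmu-let-7c-5p: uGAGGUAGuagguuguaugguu
mmu-let-7a-5p: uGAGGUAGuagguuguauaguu
mmu-miR-125b-5p: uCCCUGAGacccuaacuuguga
mmu-miR-379-5p: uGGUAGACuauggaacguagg
mmu-miR-380-3p: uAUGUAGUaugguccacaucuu
mmu-miR-376a-3p: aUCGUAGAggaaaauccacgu
miR-99a and miR-100 share the seed ACCCGUA, let-7c and let-7a share GAGGUAG, and miR-125b is made from a gene in each of both clusters.

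Of the 296 measured microRNA genes 13 (4.39%) exceeded every other region by 1 log2 unit or more in the pontine nucleus when the floor was lifted, against 0.507% of all named genes. The same count was 1 in the superior colliculus, 0 in the olfactory bulb and 2 in the cerebellum. It rose to 29 without the superior colliculus array, and was 13 and 16 without those of the cerebellum and the olfactory bulb. Only 67 of the 296 exceeded the floor, and 4 of the 13 did (Mir99a, Mirlet7c-1, Mir100 and Mir380). The remaining 9 of the 13 were dim on all arrays, so their differences lie in the range of weak signals. On the same array 3.39% of 6617 unlisted probe sets, described further on, also passed the higher rule without the floor. The probe sets do not separate mature from precursor or primary transcripts.

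The cluster of Mir99a, Mirlet7c-1 and Mir125b-2 (chr16:77598936-77646339) passed with 3 of 3 genes. Mir99a read 9.51, 9.51, 11.26 and 9.65, Mirlet7c-1 read 7.50, 7.63, 9.86 and 7.92, and Mir125b-2 read 5.69, 5.54, 7.38 and 5.92. Their median difference was 1.70, and the host transcript Mir99ahg also passed, at 10.07, 10.10, 11.11 and 9.79. The related cluster of Mir100, Mirlet7a-2 and Mir125b-1 (chr9:41531425-41582002) passed with 2 of 3, and its median was 1.50. Mir100 read 7.13, 7.25, 8.83 and 7.58, Mirlet7a-2 read 6.46, 6.50, 8.06 and 6.73, and Mir125b-1 fell just short at 7.47, 8.03, 9.38 and 8.40. Its host Mir100hg was highest in the pontine nucleus as well, at 10.58, 10.99, 11.81 and 11.16. Another cluster of the same families, Mir99b, Mirlet7e and Mir125a (chr17:17830194-17830879), had a median of 0.15 and no gene past the rule, with Mir99b at 8.76, 8.73, 8.58 and 8.73. Genes of the same seed family thus differed by cluster.

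The cluster from Mir379 to Mir369 (chr12:109709060-109743496), which lies in an imprinted domain and is expressed from the maternal chromosome, had 30 measured members. Of these 29 lay above the comparison mean, 28 were highest in the pontine nucleus and 6 passed the rule without the floor, with a median difference of 1.03. Mir379 read 5.11, 4.74, 7.04 and 5.86, Mir376a read 4.37, 4.16, 6.41 and 5.08, and Mir380 read 7.04, 6.76, 8.57 and 7.28. Mir134, a member above the floor on all arrays, read 9.82, 9.90, 10.60 and 10.41. The neighbouring group from Mir673 to Mir370 (chr12:109571990-109618336) had a median of 0.44 over 10 genes with none past the rule. Of the long transcripts of the same domain, Meg3 read 11.85, 11.52, 12.32 and 12.18 and Rian 9.18, 9.26, 10.33 and 9.94. The paternally expressed Dlk1 read 9.58, 9.34, 9.33 and 9.74 and was not high. Of the 271 microRNA genes with a position in RefSeq, the 225 outside these 3 clusters and the Mir673 group had a median of 0.00 and 2 genes past the rule.

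**Figure D5:**
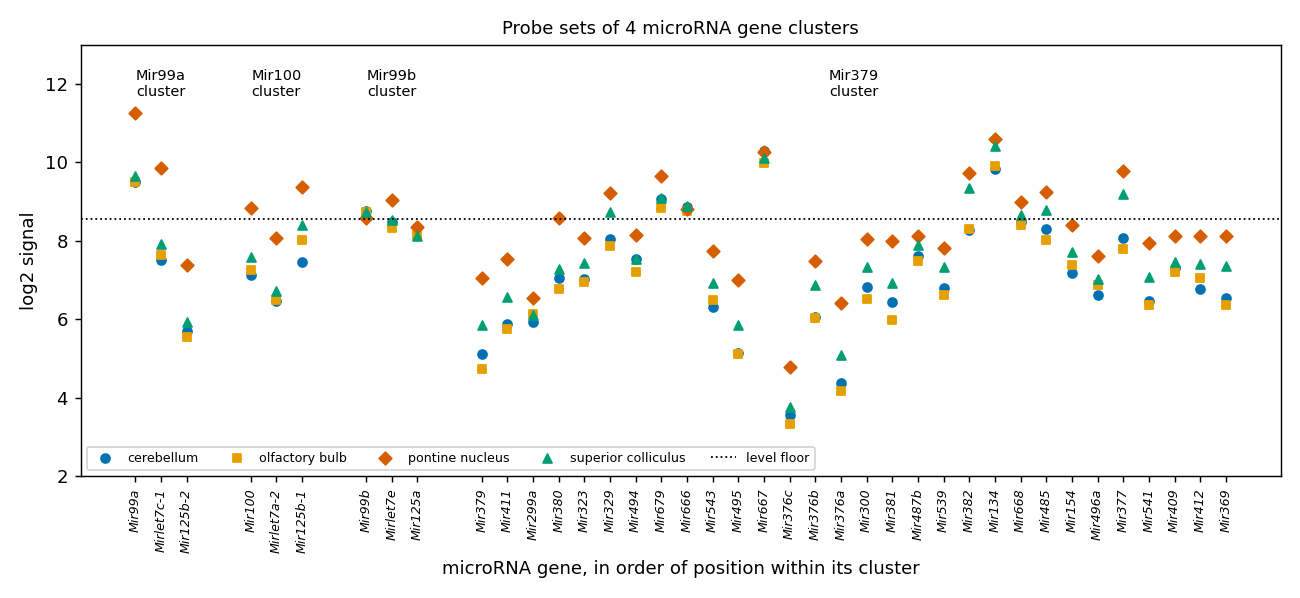
Log2 signal (y axis) of microRNA genes in 4 clusters (x axis, in order of position within a cluster), 1 symbol per region and array, with the level floor of 8.56 as a dotted line. Pontine nucleus symbols stand above the others throughout the Mir99a and Mir100 clusters and for 28 of 30 genes of the Mir379 cluster, many of them below the floor, but not in the Mir99b cluster except for Mirlet7e.

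In the plot of microRNA clusters the superior colliculus is the next highest region for most of the Mir379 cluster, as for Mir377 at 8.06, 7.78, 9.78 and 9.18. A broader upward shift stood beside these values. Of 6617 probe sets that the annotation table does not list and that carry identifiers below the first annotated one, 224 (3.39%) passed the higher rule in the pontine nucleus without the floor, and the median difference of all 6617 was 0.25. The same probe sets gave 6 in the olfactory bulb, 4 in the superior colliculus and 2 in the cerebellum. Over all 12146 unlisted probe sets the pontine count was 259 (2.13%), with 35 (0.633%) among those of later identifiers, and over the 1621 probe sets with several symbols it was 5 (0.308%). What they measure is not given in the sources used here, and their relation to the microRNA genes was not tested.

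Some genes lay at the edge of the rule or had several probe sets. Just inside the lower rule were Cpne8 (9.12, 8.43, 7.43 and 8.48) and Kit, and just outside it were Nkd2 (8.90, 8.90, 7.92 and 9.80) and Epha6 (9.94, 9.74, 8.64 and 9.62). Among the lower genes 4 had several probe sets: those of Gabrb2 and Pou3f2 all passed, and the second ones of Kcnma1 and Ntng1 lay on the same side without passing. Of 6 higher genes with several, Pappa2, Cntnap5c and Scn9a passed with all, Mir99ahg with 1 of its 3 others, and Fbxl7 and Ttc39b with none of theirs.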

How the data were processed

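Total RNA of 4 brain regions was measured on Affymetrix arrays, 1 pool and 1 array each. The authors deposited 1 log2 value per probe set and array. Their range (2.43 to 14.57) is the basis for reading them as log2. Affymetrix Expression Console was used, per the submitters' processing notes, and the sources used here give no version, summarisation, normalization or build. Scaling between arrays can remove a general difference between regions, and dim signals compress folds.

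Of 35556 probe sets 21789 had 1 symbol in the array's annotation of 2016, 1621 had several and were not used for genes, and 12146 had no entry. The brightest probe set gave a gene's level. The floor is the 50th percentile of all gene levels. No test was possible with 1 array per region. Scripts were tested on simulated data.

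The comparison, its 5 markers, the 44 gene lists and the alternatives were chosen with earlier results of these data known. Named were the 25 lower and 15 higher genes with the widest gaps, apart from small RNAs, pseudogenes, predicted genes, antigen receptor segments and the receptors of smell and pheromones. Also named were up to 6 lower and 4 higher members of each list, or up to 2 with the largest differences in lists where none passed, the 2 genes nearest to the lower rule on each side, and the markers. All other genes, the microRNA genes, their clusters (at least 3 genes at most 60 kb apart), the promoters and the motifs were chosen after their values were seen. The result of 1 gene list is not reported here. Counts of microRNA genes and of unnamed probe sets were taken without the floor. Of genes, 19856 were matched to RefSeq by Entrez ID. Alternatives were other floors, quantile normalization, median centring, averaging over a gene's probe sets, rules of 0.8 and 2 log2 units, other comparators, and leaving out each other array. Python 3.11.15, NumPy 2.4.6, pandas 2.3.3 and Matplotlib 3.10.9 were used.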

Additional observations from a re-analysis of the deposited data

Results flagged for a closer look

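Signals also appeared in probe sets outside the named genes. Of the probe sets that the annotation table does not list, 6617 have identifiers below the first annotated one, and 224 of these passed the higher rule in the pontine nucleus with no level floor, of which 22 exceeded the floor. Their median level over all 6617 was 7.34, 7.29, 7.66 and 7.23 in the order cerebellum, olfactory bulb, pontine nucleus, superior colliculus, and 74.4% were above the comparison mean in the pontine nucleus. Of the 5529 with later identifiers 35 (0.633%) did, with a median difference of 0.00. Among 1621 probe sets with several symbols, 3 that exceeded the floor were higher in the pontine nucleus. They were the probe set of Iqschfp and Iqcj, at 7.80, 8.11, 10.03 and 7.93, and both probe sets of Mir344 and Mir344-2, at 9.77, 9.56, 10.93 and 9.64 and at 9.92, 9.68, 11.09 and 9.78.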

How the results depend on the processing

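The 107 lower genes became 13 at 2 log2 units, 174 at 0.8, 395 against the mean and 410 against the median of the other arrays, and 210, 166 and 244 without the cerebellum, olfactory bulb and superior colliculus arrays. The 87 higher genes became 21 at 2 log2 units, 131 at 0.8, 180 against the mean and 183 against the median. Under the other alternatives run, the counts stayed within 81 to 110 lower and 60 to 128 higher genes. Quantile normalization kept 105 of the 107 lower and 76 of the 87 higher genes. The 259 unnamed probe sets higher in the pontine nucleus became 3 at 2 log2 units and 41 with the floor. The 13 microRNA genes became 11 after quantile normalization, 12 after centring and 4 with the floor. List medians turned sign against the highest of the other arrays for the mossy fibre (-0.46), brainstem (-0.26), oligodendrocyte (-0.17), semaphorin (-0.03) and neurotrophic (-0.03) lists. Against the lowest they turned for the glutamatergic (0.23), transcription factor (0.45), Eph (0.38), cell division (0.29), astrocyte (0.27), Notch (0.20), neuropeptide (0.17), immunoglobulin (0.13), leucine-rich repeat (0.10) and Wnt (0.07) lists. Those comparators raise or lower the reference by construction. Without the superior colliculus array the Eph, glutamatergic and immunoglobulin list medians were 0.09, 0.04 and 0.03, without the cerebellum array that of the brainstem list was -0.07, and with the floor at the 75th percentile that of the leucine-rich repeat list was 0.01. The other lists whose medians took either sign across the alternatives had medians of at most 0.08 in size. Medians given in the report that moved by over 1.5 times without 1 array, beside those named there, were those of the astrocyte list (-0.20, -0.17 and -0.58 without the cerebellum, olfactory bulb and superior colliculus), the microglia (-0.12), meningeal (-0.16) and respiratory chain (-0.12) lists without the olfactory bulb, the oligodendrocyte (0.22), immunoglobulin (-0.30) and Notch (-0.01) lists without the cerebellum, and the Notch list (-0.22) without the superior colliculus. No paired analysis was possible because each region has 1 array. Having 1 array per region limits the precision throughout, and levels near 7.33 or below carry little information on the size of a difference.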
